A study of Mus musculus with 36 samples.

Results

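Type 2 vomeronasal receptors are the mouse genes named Vmn2r. They were taken as all protein-coding genes of the mm10 RefSeq gene table whose symbol is Vmn2r followed by a number alone. The rule gave 123 genes. Of these, 122 could be placed on a chromosome, among 21777 placed protein-coding genes in all, and Vmn2r122 could not be placed. The 122 genes lay on 9 chromosomes in 18 loci, where members at most 1 Mb apart were joined: 12 clusters of 2 to 24 genes, which held 116 members, and 6 loci of a single gene. The loci covered 13.6 Mb, which is 0.510% of the mapped genome.

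Vmn2r genes encode class C G protein-coupled receptors with a large extracellular domain. They are expressed by basal sensory neurons of the vomeronasal organ, where they detect peptide and protein pheromones. A mature neuron expresses few of them, and most of the genes sit in clusters with close paralogs and pseudogenes. The measurement was where a tagged histone was found and not expression, so the marker names Vmn2r29 and Vmn2r2 stand for the gene family and for no cell type.

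The series mapped where tagged histone H4 sits in the genome. Mouse embryonic stem cells stably carried a PiggyBac transgene for 3HA-tagged H4 with lysine 91 replaced by glutamine (H4K91Q_3HA), by arginine (H4K91R_3HA), or left as in the wild type (H4WT_3HA). The fourth line carried the PiggyBac empty vector, so its pulldown gives the background of the anti-HA beads. All 4 lines are parental by their titles, without the HiraKO, H33DKO or DAXXKO ablations that other lines of the series carry. Those lines and the neural cells of the series were not analysed here. The tagged H4 is expressed from a transgene, and whether a line is 1 clone is not stated in the labels. Of 36 samples, 18 are pulldowns and 18 inputs, and the 4 pulldowns of these lines were used, with 1 library per group. No spread between cultures is therefore known, no test between groups was possible, and every interval here covers counting error only. The intervals also treat regions, or genes, as independent of each other.

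Each deposited list gives peaks, places where the pulldown exceeded the input of the same line. Peaks were taken as regions, and those of the tagged lists that shared any base with an empty-vector region were dropped. This left 14206 H4K91Q, 47898 H4K91R and 67078 H4WT regions, against 3007 empty-vector regions. The lists hold no read totals, so depth is unknown, and list length can move with it. For that reason each Vmn2r value is set beside the same value over its own list. The fold given for a region is the authors' enrichment over background at the summit, and it ranks regions within a list only.

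The sequences below are the start windows that the results turn on. Vmn2r29 has 2 listed starts, and its upstream start window was the 1 Vmn2r window that met a tagged region. Its inner start window met none, and Vmn2r35 has the window closest to that one. Each sequence runs 5′ to 3′ from 250 bases before to 50 bases after a RefSeq start on the minus strand of GRCm38.p6, with CpG dinucleotides in capitals. They lie at chr7:7278240-7278539, chr7:7247279-7247578 and chr7:7819818-7820117, in the order printed.
Vmn2r29 upstream start: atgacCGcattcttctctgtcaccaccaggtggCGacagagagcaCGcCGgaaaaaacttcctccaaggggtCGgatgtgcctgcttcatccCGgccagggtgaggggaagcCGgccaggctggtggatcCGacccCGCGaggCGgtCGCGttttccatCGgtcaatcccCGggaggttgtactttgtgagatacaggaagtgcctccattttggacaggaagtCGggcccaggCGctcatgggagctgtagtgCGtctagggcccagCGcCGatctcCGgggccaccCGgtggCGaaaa
Vmn2r29 inner start: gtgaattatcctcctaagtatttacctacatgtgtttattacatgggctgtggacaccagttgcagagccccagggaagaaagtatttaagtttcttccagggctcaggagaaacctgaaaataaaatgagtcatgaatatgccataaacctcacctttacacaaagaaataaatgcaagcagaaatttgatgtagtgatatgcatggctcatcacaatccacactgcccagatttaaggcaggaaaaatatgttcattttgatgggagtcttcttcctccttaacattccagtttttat
Vmn2r35: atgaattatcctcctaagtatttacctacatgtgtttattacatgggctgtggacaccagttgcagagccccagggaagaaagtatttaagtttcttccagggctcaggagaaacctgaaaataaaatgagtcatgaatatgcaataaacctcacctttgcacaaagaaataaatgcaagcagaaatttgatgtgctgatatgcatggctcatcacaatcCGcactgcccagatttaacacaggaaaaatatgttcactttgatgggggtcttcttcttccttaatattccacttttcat
The upstream Vmn2r29 window held 23 CpG and was 62.3% G and C. The inner window, 31.0 kb further into the gene, held 0 CpG and was 38.3% G and C. The Vmn2r35 window held 1 CpG. By global alignment the inner window was 95.3% identical to that of Vmn2r35. The upstream window was at most 46.3% identical to the start window of any other Vmn2r gene, the closest being Vmn2r117.

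Few Vmn2r genes met a tagged region. With the gene body and 1 kb either side as the window, 9 of 122 members met an H4K91Q region (7.38%, exact 95% interval 3.43 to 13.5%), against 7.3% of all protein-coding genes. For H4K91R it was 19 members (15.6%, 9.64 to 23.2%), against 53.1% of all protein-coding genes. For H4WT it was 11 members (9.02%, 4.59 to 15.6%), against 68.5%. The empty vector had 1 member (0.820%, 0.0208 to 4.48%), against 7.61%. The share of members was thus close to that of all genes for H4K91Q and below it, beyond counting error, for H4K91R, H4WT and the empty vector.

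In all, 24 members met a region of at least 1 tagged list (19.7%), against 71.5% of all protein-coding genes, and 97 met none of any list (79.5%), against 28.1%. H4K91R alone had 8 members (6.56%), against 2.04%. All 3 tagged lists had 4 members (3.28%), against 5.18%, which were Vmn2r1, Vmn2r2, Vmn2r29 and Vmn2r91. H4K91R with H4WT had another 4 (3.28%), against 38.7%. H4K91Q with H4K91R had 3 (2.46%), against 0.602%, which were Vmn2r22, Vmn2r60 and Vmn2r81. H4WT alone had 3 (2.46%), against 17.3%, and H4K91Q alone had 2 (1.64%), Vmn2r75 and Vmn2r79, against 0.22%. These are counts of a few genes each. No member was met by H4K91Q and H4WT without H4K91R, against 0.262% of all protein-coding genes. The 1 member with an empty-vector region, Vmn2r112 (0.820%, against 0.381% with the empty vector alone), had no tagged region.

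**Figure D1:**
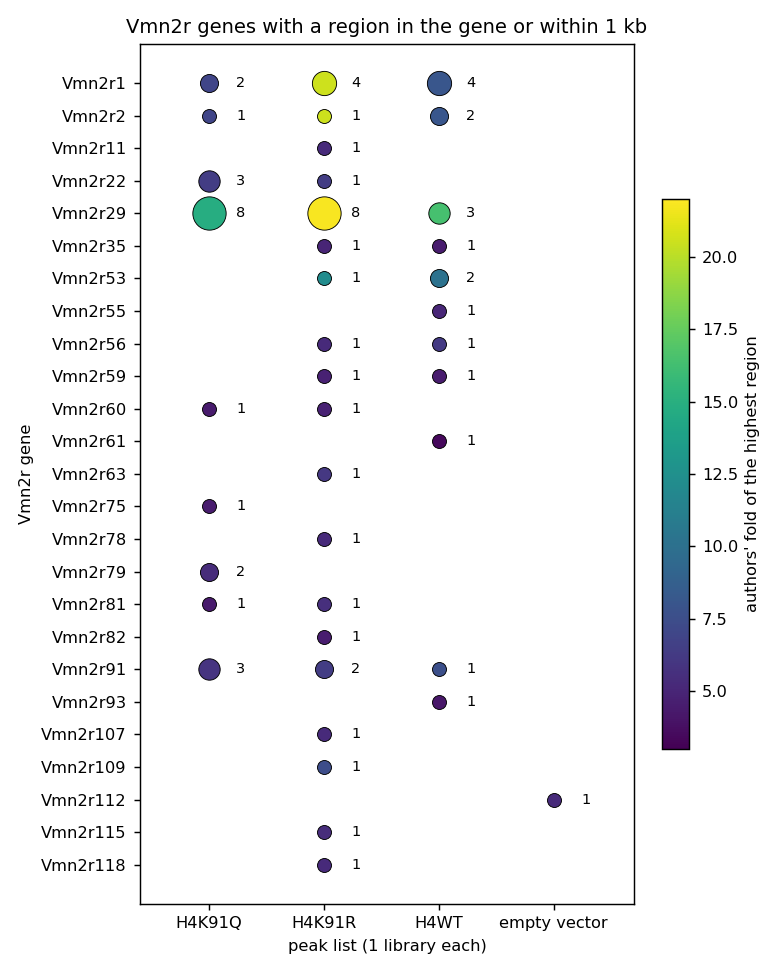
Every Vmn2r gene with a region in the gene or within 1 kb, by peak list (columns, 1 library each). The number beside a point, and its area, give the regions met, and the colour gives the authors' fold of the highest region, which ranks within a column only. Vmn2r29 has 8 H4K91Q, 8 H4K91R and 3 H4WT regions, and Vmn2r112 alone has an empty-vector region.

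Vmn2r genes were longer than most, with a median of 24.6 kb against 17.2 kb for all protein-coding genes, and a longer window meets more regions. Per Mb of window, members held 21 H4K91Q regions, or 6.11 per Mb (3.78 to 9.34), against 3.20 per Mb in the windows of all protein-coding genes. They held 29 H4K91R regions, or 8.44 per Mb (5.65 to 12.1), against 28.0. They held 16 H4WT regions, or 4.66 per Mb (2.66 to 7.56), against 47.1, and 1 empty-vector region, or 0.291 per Mb, against 1.93. By this measure members lay below the windows of all coding genes for H4K91R and H4WT. The H4K91Q value stood above, but 8 of its 21 regions were those of Vmn2r29. Without that gene, left out after seeing the data, members held 13 H4K91Q regions, or 3.86 per Mb (2.05 to 6.60), an interval that includes the 3.20 per Mb of all windows. H4K91R then stood at 6.23 per Mb and H4WT at 3.86. Among the members themselves, those with a tagged region had a median length of 39.7 kb, against 21.2 kb for the 98 without one.

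Fewer members were met at their ends than over the whole window. Regions within 1 kb of either end were found at 2 members for H4K91Q (1.64%), against 1.27% of all protein-coding genes. They were found at 3 for H4K91R (2.46%), against 38.0%, and at 2 for H4WT (1.64%), against 58.7%. The empty vector had 0, against 1.68%. The H4K91Q share was thus near that of all genes, and the H4K91R and H4WT shares lay far below. The members were Vmn2r2 and Vmn2r29 in each of the 3 tagged lists, with Vmn2r78 added in H4K91R. At the limit of the window, the H4K91R region nearest to Vmn2r78 began 980 bp from the gene and the H4WT regions at Vmn2r2 began 337 bp from it. Just outside lay an H4K91Q region 1376 bp from Vmn2r129, an H4K91R region 1080 bp from Vmn2r87 and an H4WT region 1056 bp from Vmn2r86.

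Vmn2r29 carried the most regions of any member in the H4K91Q and H4K91R lists. It lies on the minus strand of chromosome 7 from 7212996 to 7278289, is 65.3 kb long and stands at the edge of a cluster of 24 genes. It met 8 H4K91Q, 8 H4K91R and 3 H4WT regions and no empty-vector region, the nearest being 585020 bp away. The regions fell at 2 places, the upstream start and a stretch about 6 to 13 kb inside the gene.

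Over the upstream start lay a wide region in each tagged list. The H4K91Q region ran from 7277549 to 7278643, which is 1095 bp, with a fold of 7.59. The H4K91R region ran from 7277540 to 7278564, 1025 bp, with a fold of 21.8. The H4WT region ran from 7277596 to 7278559, 964 bp, with a fold of 16.4. All 3 covered the whole of the CpG-rich window printed above. Across that place the H4K91R list had 2 further regions within 1 kb upstream of the gene.

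Inside the gene the highest H4K91Q region of all Vmn2r loci ran from 7270895 to 7271426, about 7 kb from the start, with a fold of 14.8 that ranked 30 in the whole H4K91Q list. At the same place H4K91R had a region from 7270829 to 7271380 with a fold of 19.6, and H4WT had one from 7270961 to 7271343 with a fold of 7.09. A second shared place lay about 6 kb inside, where folds were 8.37 in the H4K91Q list, 10.04 in the H4K91R list and 11.14 in the H4WT list. By fold, the first inner place stood above the start in the H4K91Q list, and the start stood above both inner places in the H4K91R and H4WT lists. By the authors' −log10 q the start stood above both in every tagged list. It had 67.2 there, against 38.8 at the first inner place, in the H4K91Q list, and 161 against 41.0 in the H4K91R list. In the H4WT list it had 109.6, against 17.8 at the second inner place. No region of any list met the inner start window or lay beyond 13.1 kb into the gene. Further regions lay upstream, about 13 to 23 kb from the start, at the neighbouring gene Clcn4, which encodes a chloride and proton exchanger. Among them, about 21 to 22 kb upstream, were the highest folds of the cluster in the H4K91R list (23.0) and the H4WT list (19.9).

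**Figure D2:**
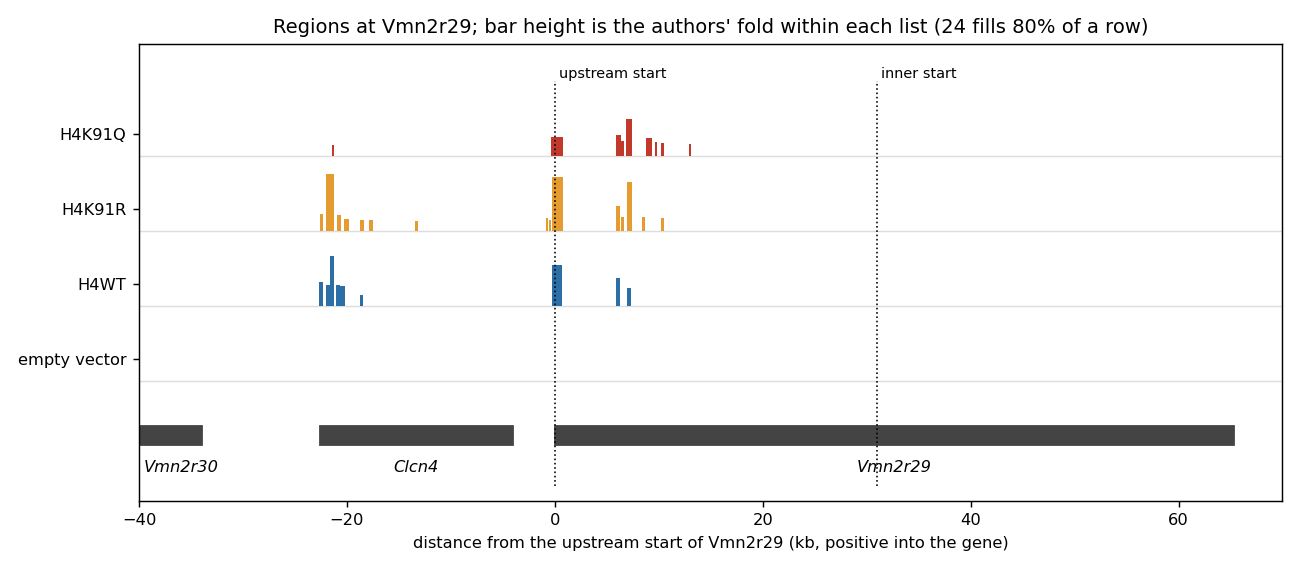
Regions around Vmn2r29, drawn to scale by distance from its upstream start (kb, positive into the gene), one row per list. Bar height is the authors' fold within that list, grey bars are genes and dotted lines are the 2 listed starts. Regions gather at the upstream start and 6 to 13 kb inside in the tagged lists, and none lies at the inner start.

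Vmn2r1 and Vmn2r2 belong to the small group of type 2 receptors that are expressed widely among basal neurons beside a more restricted receptor. They overlap on chromosome 3, Vmn2r1 on the plus strand from 64078172 to 64220847 and Vmn2r2 on the minus strand from 64115730 to 64170917, and so share their main regions. The H4K91Q region ran from 64170474 to 64172810, which is 2337 bp, over the upstream end of the Vmn2r2 gene body, with a fold of 6.90. In the H4K91R list it ran from 64170774 to 64172861 with a fold of 20.6, ranking 157 in that list. In the H4WT list the place was split into regions at 64171255 to 64171645, with a fold of 8.10, and at 64171765 to 64172753, with a fold of 6.58. The listed start window of Vmn2r2 lies elsewhere, inside the gene body at 64137431 to 64137730. It held 3 CpG and met no region of any list. Vmn2r1 had 2 H4K91Q, 4 H4K91R and 4 H4WT regions in all, and Vmn2r2 had 1, 1 and 2. Every Vmn2r2 region was also counted for Vmn2r1.

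The fourth member with all 3 tagged lists, Vmn2r91 on chromosome 17, had 3 H4K91Q regions with a top fold of 5.87, 2 H4K91R regions with a top fold of 6.34 and 1 H4WT region with a fold of 7.60. Its H4K91Q and H4K91R regions lay together near 18119120, and the H4WT region lay apart from them at 18130566 to 18130847. Vmn2r22 on chromosome 6 had 3 H4K91Q regions between 123646145 and 123648145, with a top fold of 6.39, and 1 H4K91R region there with a fold of 6.34. Vmn2r79 had 2 H4K91Q regions with a top fold of 5.32. Vmn2r60, Vmn2r75 and Vmn2r81 had 1 each, with folds of 4.34, 4.43 and 4.30.

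Outside the H4K91Q list, Vmn2r53 on chromosome 7 had a region at 12588053 to 12588498 in the H4K91R list, with a fold of 12.2. In the H4WT list it had 2 regions, the higher at 12588134 to 12588459 with a fold of 10.1. It had no H4K91Q region, the nearest being 377314 bp away. Vmn2r35 had 1 H4K91R region with a fold of 4.95 and 1 H4WT region with a fold of 4.42 inside the gene, far from the start window printed above. Vmn2r107 and Vmn2r109 had 1 H4K91R region each, with folds of 5.28 and 7.40. Vmn2r112 had its empty-vector region at 22604664 to 22604826, with a fold of 5.25. The other members with a region had 1 each per list. Vmn2r116, the receptor for the tear peptide Esp1 and named here for that role outside the rule, had none.

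Promoter sequence was available for 116 of the 122 members, in 117 windows. Vmn2r29 was the 1 member whose start window met a region, in each tagged list, which is 0.862% of members. Among all protein-coding genes the shares were 0.394% for H4K91Q, 18.5% for H4K91R, 42.7% for H4WT and 0.234% for the empty vector. Vmn2r start windows were poor in CpG, with a median of 1 against 13 in all protein-coding windows. In 95 of the 117 (81.2%) there were 0 to 2 CpG, against 18.1% of all windows, and 33 had 0. The upstream Vmn2r29 window was the 1 Vmn2r window with 11 or more.

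The share of all protein-coding windows that met a region moved with CpG. Windows with 0 to 2 CpG met an H4K91Q region in 0.156% of cases, an H4K91R region in 0.964% and an H4WT region in 1.61%. Windows with 11 or more did so in 0.430%, 27.1% and 65.8%. Most Vmn2r starts therefore fall in a class of windows that is rarely met in any list. The part of CpG content in the Vmn2r counts was not tested.

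**Figure D3:**
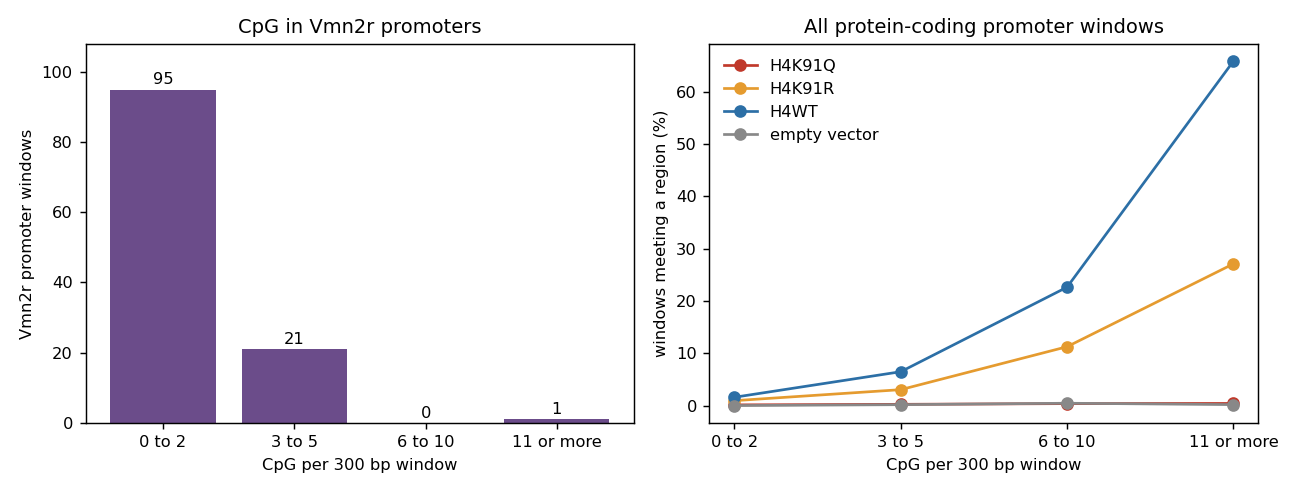
Left, Vmn2r start windows by CpG per 300 bp window (bars, number of windows). Right, the percentage of all protein-coding start windows that meet a region of each list, by the same CpG classes. Of the Vmn2r windows 95 hold 0 to 2 CpG and 1 holds 11 or more, and the H4K91R and H4WT lines climb with CpG to 27.1% and 65.8%.

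Many Vmn2r genes have near-identical copies, from which short reads cannot always be told apart. Of the 117 Vmn2r windows, 65 were at least 90% identical to the window of another member and 8 were identical to one, with a median closest identity of 91.3%. Members with a tagged region had a median closest identity of 90.2%, against 92.0% for those without. How multiply mapped reads were handled is not given in the sources used here, and the part of copies in the counts was not tested.

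Most regions of the Vmn2r loci lay outside the Vmn2r genes. The loci held 141 H4K91Q, 169 H4K91R and 103 H4WT regions, against 2 of the empty vector. By midpoint, 85.1% of the H4K91Q regions (78.1 to 90.5%), 83.4% of the H4K91R regions (77.0 to 88.7%) and 84.5% of the H4WT regions (76.0 to 90.9%) lay outside every Vmn2r gene and the 1 kb around it. Vmn2r windows made up 25.3% of locus bases. Stretches with no annotated gene held 70.2% of H4K91Q, 60.4% of H4K91R and 51.5% of H4WT regions, and they made up 55.3% of the bases. Other protein-coding genes, 4.12% of the bases, held 4.26% of H4K91Q, 9.47% of H4K91R and 17.5% of H4WT regions. Vmn2r pseudogenes, 7.76% of the bases, held 2.13%, 4.73% and 3.88%.

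Against their own lists, the loci were rich in H4K91Q and poor in H4WT. H4K91Q had 10.4 regions per Mb (8.75 to 12.3), against 5.34 over the genome, a ratio of 1.95. H4K91R had 12.5 per Mb (10.6 to 14.5), against 18.0, a ratio of 0.692. H4WT had 7.59 per Mb (6.19 to 9.20), against 25.2, a ratio of 0.301. The empty vector had 0.147 per Mb (0.0178 to 0.532), against 1.13, a ratio of 0.130, lower than that of any tagged list. The loci thus held 0.993% of the H4K91Q list, 0.353% of the H4K91R list and 0.154% of the H4WT list on 0.510% of the genome. The H4K91R and H4WT values depended on where a locus ends: with members joined up to 2 Mb apart they were 20.9 and 29.0 regions per Mb, and with Vmn2r pseudogenes counted as members 21.0 and 18.6. The H4K91R direction turned under both settings and the H4WT direction under the first. The empty-vector direction also turned under both, at 1.20 and 1.54 regions per Mb, against 1.13.

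Vmn2r loci are poor in other genes, and so part of the comparison is with gene-rich DNA. Outside all protein-coding genes and 1 kb around them, the loci held 11.9 H4K91Q regions per Mb (9.82 to 14.3), against 6.79 in the same kind of DNA over the genome. They held 13.1 H4K91R regions per Mb (10.9 to 15.6), against 11.4, and 7.21 H4WT regions (5.61 to 9.12), against 10.6. Empty-vector regions stood at 0.104 per Mb (0.0026 to 0.582), from 1 region, against 0.596. Away from genes H4K91Q thus lay above its genome value, beyond counting error. H4WT and the empty vector both lay below theirs, beyond counting error, while the H4K91R interval included the genome value.

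The DNA beside the loci differed from them. In the 500 kb on either side, regions stood at 14.3 per Mb for H4K91Q, 34.6 for H4K91R, 43.4 for H4WT and 1.91 for the empty vector. Taken as a whole the loci lay below these flanks in every list. The flanks were themselves above the genome in every list, the empty vector included. The flanks of Vmn2r129 alone held 50 of the 239 H4K91Q flank regions. Without them, left out after seeing the data, the flanks held 11.6 H4K91Q regions per Mb (10.04 to 13.4), an interval that overlaps that of the loci, 30.5 of H4K91R and 38.8 of H4WT. The flanks of Vmn2r80 to Vmn2r83 held 121 of the 579 H4K91R and 201 of the 726 H4WT flank regions. They also held 17 of the 32 empty-vector flank regions, and they were left in throughout. Cluster by cluster the direction varied. Of the 12 clusters of at least 2 genes, 5 stood above their own flanks and 7 below for H4K91Q, 3 above and 9 below for H4K91R, and 4 above and 8 below for H4WT.

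**Figure D4:**
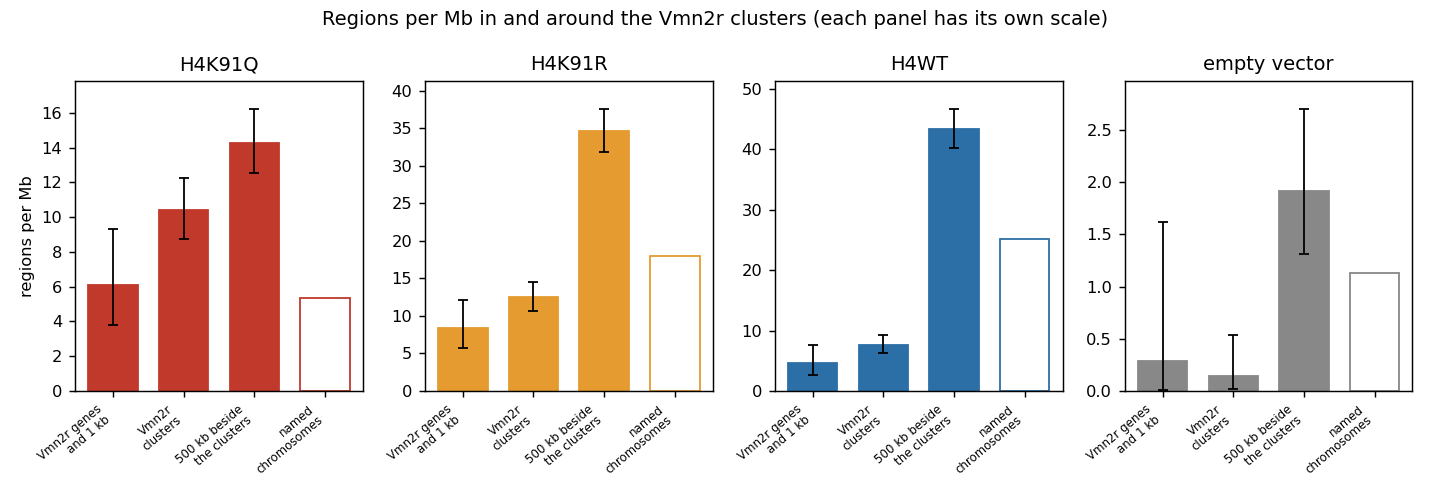
Regions per Mb in Vmn2r genes with 1 kb, in the Vmn2r loci, in the 500 kb beside them and over the named chromosomes (open bars), one panel per list with its own scale. Error bars are exact 95% Poisson intervals. For H4K91Q the loci (10.4 per Mb) lie above the chromosomes (5.34), and for H4WT they lie below (7.59 and 25.2).

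The lists differ in length, so they were also cut to about equal length by the authors' −log10 q. The loci then held 141 H4K91Q, 76 H4K91R and 19 H4WT regions, with ratios to the genome of 1.95, 1.08 and 0.276. H4K91R then stood near its genome value, and the order of the ratios was as with whole lists.

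Regions at the loci were of ordinary height and width. The median fold was 5.33 for H4K91Q, against 5.13 over the whole list, 5.81 against 5.28 for H4K91R, and 5.94 against 5.68 for H4WT. Median widths were 291 bp against 317 bp for H4K91Q, 312 bp against 270 bp for H4K91R, and 251 bp against 265 bp for H4WT. Another region of the same list lay within 10 kb of 75.2% of H4K91Q regions at the loci, against 71.2% over the whole list. The shares were 53.3% against 68.0% for H4K91R and 47.6% against 75.6% for H4WT. Of the H4K91Q groups at the loci, the longest in kb was a run of 7 regions from 79400321 to 79425473 on chromosome 10. It spanned 25.2 kb and began 3554 bp beyond Vmn2r82. The group with most regions was the run of 8 at Vmn2r29, over 13.4 kb.

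By distance from the nearest Vmn2r gene, H4K91Q had 6.57 regions per Mb inside gene bodies, 10.4 within 10 kb outside, 13.2 from 10 to 50 kb, 9.57 from 50 to 100 kb and 10.7 beyond. H4K91R had 8.13, 11.9, 15.6, 12.9 and 12.2 in the same bins. H4WT had 5.01, 4.96, 9.32, 6.75 and 11.2. Intervals of neighbouring bins overlapped. The intervals of gene bodies and of the 10 to 50 kb bin did not overlap for H4K91Q and H4K91R. For H4K91Q they parted narrowly, at 4.07 to 10.04 and 10.12 to 17.0. These intervals treat regions as independent, though many lay in runs, such as the 8 H4K91Q regions at Vmn2r29. Whether gene bodies truly lie lower is therefore not settled.

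The tagged lists met each other at the loci in proportions partly unlike those of the whole lists. Of the 141 H4K91Q regions, 46.8% met an H4K91R region (38.4 to 55.4%), against 53.5% of the whole H4K91Q list, and 19.1% met an H4WT region, against 18.8%. Of the H4K91R regions, 39.6% met an H4K91Q region (32.2 to 47.4%), against 16.0%, and 35.5% met an H4WT region (28.3 to 43.2%), against 54.0%. Of the H4WT regions, 26.2% met an H4K91Q region (18.0 to 35.8%), against 4.09%, and 60.2% met an H4K91R region (50.1 to 69.7%), against 37.7%. For the H4K91Q list the shares were thus near those of the whole list. For the other lists more of the regions met H4K91Q at the loci. With members joined up to 2 Mb apart, 52.5% of H4K91R regions met H4WT and 38.6% of H4WT regions met H4K91R, near the whole-list shares. H4K91Q was then met by 25.0% of H4K91R and 8.66% of H4WT regions, still above the whole lists. The same shares in DNA away from genes were not computed.

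Merged over the 3 tagged lists, the loci held 281 places. H4K91Q alone took 75 of them (26.7%, 21.6 to 32.3%), against 6.95% of 92820 places over the genome. H4WT alone took 41 (14.6%, 10.7 to 19.3%), against 44.8%. H4K91R alone took 68 (24.2%), against 18.1%. H4K91Q with H4K91R took 38 (13.5%), against 4.85%, and H4K91R with H4WT took 33 (11.7%), against 22.6%. All 3 lists took 26 (9.25%, 6.13 to 13.3%), against 2.57%. H4K91Q with H4WT took 0, which allows up to 1.30%, against 0.139%.

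The clusters differed among themselves. Of the 12 clusters of at least 2 genes, 8 had more H4K91Q regions per Mb than their own chromosome, 4 had more H4K91R and 2 had more H4WT. In 6 clusters H4K91Q regions outnumbered H4WT regions, in 4 they were fewer and in 2 equal. Of the 6 single-gene loci, 5 had no region of any list, and Vmn2r118 had 1 H4K91R region with a fold of 5.28.

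The cluster from Vmn2r90 to Vmn2r110 on chromosome 17, with 22 members in 2.89 Mb, held the most regions in the H4K91Q and H4K91R lists. It had 51 H4K91Q regions (17.6 per Mb, 13.1 to 23.2), against 6.92 per Mb over the chromosome. It had 44 H4K91R regions (15.2 per Mb), against 27.0, 21 H4WT regions (7.26 per Mb), against 41.1, and 1 empty-vector region. Only 3 of the H4K91Q regions lay in a member's window, all at Vmn2r91. The highest H4K91Q region ran from 18144432 to 18144889, 7040 bp from Vmn2r92, with a fold of 8.01. Without this cluster the other loci held 8.43 H4K91Q regions per Mb, the lowest value when each locus was left out in turn.

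On chromosome 10 the cluster of Vmn2r80 to Vmn2r83, with 4 members in 0.345 Mb, held 11 H4K91Q regions (31.9 per Mb, 15.9 to 57.0), against 6.43 over the chromosome. It held 7 H4K91R regions (20.3 per Mb), against 18.6, and 2 H4WT regions (5.79 per Mb), against 26.5. A place at 79338023 to 79338492, 18098 bp from Vmn2r82 and in no annotated gene, had the highest H4K91Q fold there, 8.76. The other cluster of that chromosome, Vmn2r84 to Vmn2r87, had 0 H4K91Q, 3 H4K91R and 4 H4WT regions in 0.114 Mb.

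Chromosome 7 held 4 clusters with unlike counts. The cluster of Vmn2r29 to Vmn2r52 had 24 members in 2.97 Mb but 11 H4K91Q regions (3.71 per Mb, 1.85 to 6.64), against 6.19 over the chromosome, with 17 of H4K91R and 10 of H4WT. Of these, 8 H4K91Q, 8 H4K91R and 3 H4WT regions were those of Vmn2r29. The cluster of Vmn2r57 to Vmn2r126 had 21 H4K91Q (12.7 per Mb), 38 H4K91R (23.0 per Mb) and 27 H4WT regions (16.4 per Mb). Vmn2r65 to Vmn2r79 had 12, 16 and 9 regions in the same order of lists, and Vmn2r53 to Vmn2r56 had 0, 2 and 4.

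In the cluster of Vmn2r65 to Vmn2r79 the highest H4K91R and H4WT regions shared a place, at 85175008 to 85175527 with a fold of 16.9 in the H4K91R list and at 85175093 to 85175535 with a fold of 15.7 in the H4WT list. In the H4K91R list it lay 19105 bp from Vmn2r67 in no annotated gene. An H4K91Q region lay there too, at 85174929 to 85175495, with a fold of 5.67. The highest H4K91Q region of that cluster lay elsewhere, at 86672458 to 86673446, 121694 bp from Vmn2r77, with a fold of 9.98. That region also met an H4K91R and an H4WT region.

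On chromosome 6, Vmn2r19 to Vmn2r27 had 11 H4K91Q regions (11.9 per Mb), against 5.55 over the chromosome, with 10 of H4K91R and 6 of H4WT. The highest region of all 3 tagged lists fell at the same place, in no annotated gene. Its H4K91Q region was 83609 bp from Vmn2r26, a receptor known to respond to MHC class I peptides. It ran from 123940630 to 123941148 in the H4K91Q list with a fold of 10.9, from 123940611 to 123941185 in the H4K91R list with a fold of 20.1, and from 123940674 to 123941167 in the H4WT list with a fold of 14.7.

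The remaining clusters were small in count. Vmn2r8 to Vmn2r17 on chromosome 5 had 7 H4K91Q, 6 H4K91R and 1 H4WT regions, and Vmn2r1 to Vmn2r7 on chromosome 3 had 7, 11 and 7. Vmn2r111 to Vmn2r117 on chromosome 17 had 8, 9 and 8, with 1 empty-vector region. Vmn2r88 to Vmn2r89 on chromosome 14, in 0.052 Mb, had 2, 5 and 4. There the highest region of each tagged list lay at another protein-coding gene between the pair.

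**Figure D5:**
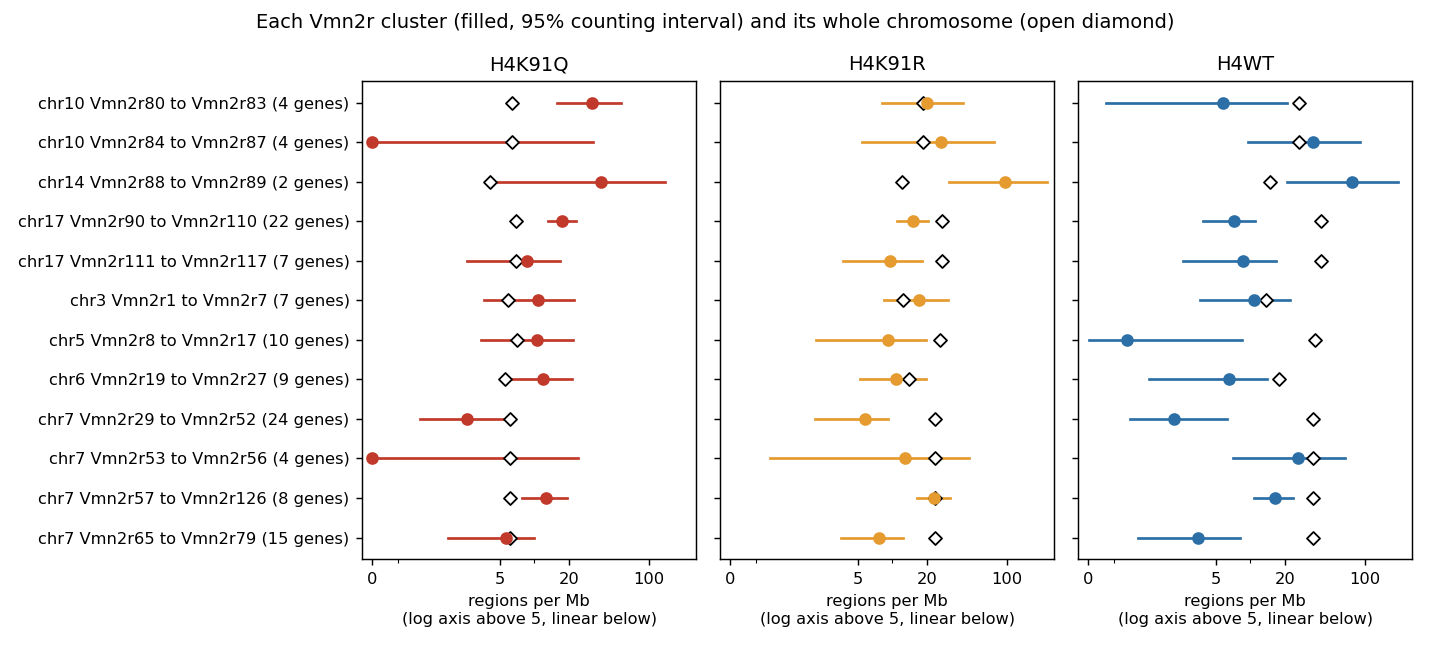
Regions per Mb in each of the 12 Vmn2r clusters (filled points, with exact 95% Poisson intervals) and over the chromosome that holds it (open diamonds), one panel per tagged list. The axis is logarithmic above 5 and linear below. H4K91Q points lie right of their diamond in 8 clusters, H4K91R points in 4 and H4WT points in 2.

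Other genes of the vomeronasal system and other receptor families were counted by the same window. Of all protein-coding genes, 7.3% met an H4K91Q region, 53.1% an H4K91R region, 68.5% an H4WT region and 7.61% an empty-vector region. The list for vomeronasal signal transduction held 22 genes, among them the channel gene Trpc2 and phospholipase and inositol trisphosphate receptor genes. Of these, 2 met an H4K91Q region (9.09%), 18 an H4K91R region (81.8%), 21 an H4WT region (95.5%) and 6 an empty-vector region (27.3%). Those with H4K91Q regions were Itpr2 and Itpr3, inositol trisphosphate receptors that release calcium, with folds of 5.33 and 6.30. Of 23 genes for the identity and wiring of these neurons, 2 met an H4K91Q region (8.70%) and 22 an H4K91R region (95.7%). An H4WT region was met by 22 (95.7%) and an empty-vector region by 2 (8.70%). The transcription factor gene Bcl11b, needed for basal vomeronasal neurons, had top folds of 10.1 in the H4K91R list and 12.2 in the H4WT list. For H4K91R and H4WT the shares of both lists lay above those of the Vmn2r genes, with intervals that did not overlap. The identity and wiring genes are long, with a median of 92.1 kb against 24.6 kb for Vmn2r genes. Per Mb of window they held 17.3 H4K91R and 27.9 H4WT regions. The windows of all protein-coding genes held 28.0 and 47.1.

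The other class C receptors, which include the metabotropic glutamate and sweet taste receptors, belong to the same structural class. Of 22 genes, 3 met an H4K91Q region (13.6%), which were Grm7, Grm8 and Gpr158. An H4K91R region was met by 18 (81.8%), an H4WT region by 20 (90.9%) and an empty-vector region by 8 (36.4%). All protein-coding genes stood at 7.3%, 53.1%, 68.5% and 7.61% in that order of lists. The 9 H2-Mv genes, expressed with Vmn2r genes in basal neurons, the 7 formyl peptide receptors, the 15 exocrine secreted peptides and the 15 trace amine-associated receptors met no region of any list. The products of the 22 major urinary protein genes are vomeronasal ligands. Of these genes, 1 met an H4K91Q region (4.55%), 2 an H4K91R region (9.09%), 1 an H4WT region (4.55%) and 0 an empty-vector region. The windows of the families with none are short, and for the H2-Mv genes the count of 0 allows up to 79.0 regions per Mb.

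Other receptor families also lie in clusters. Of 228 type 1 vomeronasal receptor genes (Vmn1r), which are short, 2 met an H4K91Q region (0.877%) and 4 an H4K91R region (1.75%). An H4WT region was met by 4 (1.75%) and an empty-vector region by 0. All protein-coding genes stood at 7.3%, 53.1%, 68.5% and 7.61%. Vmn2r clusters of at least 2 genes held 10.5 H4K91Q regions per Mb (8.83 to 12.4), 12.5 of H4K91R (10.7 to 14.5), 7.67 of H4WT (6.26 to 9.30) and 0.149 of the empty vector. In Vmn1r clusters the values were 13.6 (11.6 to 15.8), 14.6 (12.6 to 16.9), 9.95 (8.28 to 11.9) and 0.478. Olfactory receptor clusters had 10.3 for H4K91Q (9.26 to 11.4), 16.0 for H4K91R (14.7 to 17.4), 13.8 for H4WT (12.6 to 15.1) and 0.717 for the empty vector. Zfp zinc finger gene clusters had 13.7, 45.0, 63.6 and 2.79. The H4K91Q density is thus not particular to Vmn2r clusters. For both H4K91R and H4WT, Vmn2r clusters lay below the olfactory and Zfp clusters beyond counting error. In both lists their interval overlapped that of the Vmn1r clusters.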

How the data were processed

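HA ChIP-seq peak lists of 4 mouse embryonic stem cell lines were used, 1 library per group, grouped by sample titles. The other 32 samples were not analysed here. Per the labels' protocols, cells were fixed, chromatin was sheared and tagged histone was pulled down on Pierce anti-HA magnetic beads. Peaks were called with MACS2 on mm10, per the submitters' processing notes, and peak names show each pulldown called alone against its own line's input. The sources used here do not name the aligner, the q cutoff or how duplicate and multiply mapped reads were treated. The authors deposited for each peak a score, which in 100% of peaks is its −log10 q times 10 with decimals dropped, a fold enrichment (a ratio at the summit), and −log10 p and −log10 q. The −log10 q served to filter and shorten lists, and the authors' −log10 p was not used. Depth is unknown.

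Overlapping peaks were merged (0 removed). Genes and start windows came from RefSeq GRCm38.p6, the build of mm10, and 1 unplaced Vmn2r gene was left out. The mapped genome runs from the first to the last peak of each chromosome. Overlap needed 1 bp. Intervals are exact (Clopper-Pearson or Poisson) at 95%. Start windows were aligned globally with edlib 1.3.9.post1, and counts were made with Python 3.11.15 and pandas 2.3.3. The counting step was tested on simulated regions and recovered 100% of 122 members. Named genes were Vmn2r29 and Vmn2r2, then per tagged list the 5 members with most regions and the 5 of highest fold, members met by all 3 tagged lists, members with an H4K91Q or empty-vector region, the top and widest region per cluster, up to 3 genes per other list, and those at the 1 kb limit. A few that the rule takes are given by count alone. Members, gene lists and tests were chosen with earlier results of these data known. Alternatives were a stricter −log10 q, a 50% overlap, empty-vector regions kept, other windows and cluster distances, lists of equal length, pseudogenes included and, added after seeing the data, leaving out Vmn2r29, other coding genes, 1 cluster or the flanks of Vmn2r129.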

Additional observations from a re-analysis of the deposited data

How the results depend on the processing

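Of 188 values under other settings for 29 results, 133 moved by less than their counting interval, or stayed within 1.5 times for counts, and 55 moved further. With 5 kb windows, 16.4% of members met an H4K91Q region, 27.0% an H4K91R region and 17.2% an H4WT region. The share of all protein-coding genes was not computed for 5 kb windows. At that width 77.3% of H4K91Q and 75.1% of H4K91R locus regions lay outside every Vmn2r gene and the 5 kb around it. At −log10 q of 5 or more, loci held 7.88 H4K91Q, 8.03 H4K91R (109 regions) and 5.16 H4WT regions per Mb, and member windows held 5.53 for H4K91R and 2.62 for H4WT. The empty-vector values, as locus regions, regions per Mb and members, were then 0. With lists of equal length, 4.92% of members met an H4K91R region and 1.64% an H4WT region. Of all protein-coding genes, 24.6% and 36.9% then did so. Member windows held 2.91 and 0.873 per Mb, and loci held 76 (5.60 per Mb) and 19 regions (1.40 per Mb). The shares of locus regions that met another list were then 29.8% (H4K91Q with H4K91R), 5.67% (H4K91Q with H4WT), 53.9% (H4K91R with H4K91Q), 19.7% (H4K91R with H4WT), 42.1% (H4WT with H4K91Q) and 84.2% (H4WT with H4K91R). An overlap of 50% of the region took H4K91Q with H4K91R to 37.6%.

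Joining members at most 2 Mb apart took in other genes. Loci then held 400 H4K91R (20.9 per Mb), 554 H4WT (29.0 per Mb) and 23 empty-vector regions (1.20 per Mb). Outside every Vmn2r gene and the 1 kb around it lay 93.0% of the H4K91R and 97.1% of the H4WT regions. These shares also count regions within other genes, and the share of bases there was not computed. H4K91R regions met H4K91Q in 25.0% and H4WT in 52.5% of cases, and H4WT regions met H4K91Q in 8.66% and H4K91R in 38.6%. With pseudogenes included, loci held 257 H4K91Q (12.8 per Mb), 423 H4K91R (21.0 per Mb), 375 H4WT (18.6 per Mb) and 31 empty-vector regions (1.54 per Mb). Of the H4WT regions, 92.0% then lay outside every Vmn2r gene or pseudogene and the 1 kb around it, regions within other genes included. H4K91R thus passed its genome value of 18.0 per Mb under both settings, and H4WT its value of 25.2 under the first. The empty vector passed its genome value of 1.13 under both. Leaving out the cluster of Vmn2r90 to Vmn2r110, chosen after seeing the data, gave 8.43 H4K91Q regions per Mb. Without the flanks of Vmn2r129, also left out after seeing the data, the 500 kb beside the loci held 11.6 H4K91Q, 30.5 H4K91R and 38.8 H4WT regions per Mb, against 14.3, 34.6 and 43.4. Without Vmn2r29, added after seeing the data, the values stayed within the counting intervals, but member windows held 3.86 H4K91Q regions per Mb, against 6.11, a change of over 1.5 times, with 6.23 for H4K91R and 3.86 for H4WT. Values also stayed within those limits when empty-vector regions were kept, with gene bodies alone, with members joined at 500 kb, and, added after seeing the data, without other coding genes.

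No paired analysis was possible because each group has 1 library and no result comes from a test. With 1 library per group, differences between lists cannot be told apart from differences between cultures, pulldowns or depths. The part of near-identical paralogs in these counts was not tested.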
